A study of Caenorhabditis elegans with 2 samples.

Results

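The genes studied encode RNA regulators of the Caenorhabditis elegans oocyte and early embryo, and were examined for binding of the TATA-binding protein TBP-1. They are the 9 protein-coding genes mex-3, gld-1, mex-5, oma-1, oma-2, spn-4, nos-2, cgh-1 and car-1, out of 19973 protein-coding genes on the 6 nuclear chromosomes. They were picked by symbol from the Ensembl release 115 annotation of WBcel235, the same build as the ce11 assembly of the peak files. All 9 symbols were found. Binding was measured by chromatin immunoprecipitation and sequencing (ChIP-seq) in a single group with 2 biological replicates. No other condition and no untagged strain was analysed here. Both replicates are whole young adults, 65 hours old, of mixed sex, from the 1 strain OP746. It carries the unc-119(tm4063) allele and the transgene wgIs746, which holds tbp-1 joined at its C-terminal end to TY1, EGFP and 3xFLAG tags and the rescuing unc-119(+). The animals were synchronised as starved first-stage larvae, and the chromatin was precipitated with an antibody against GFP. Whole animals were used, so TBP-1 on germline chromatin and on somatic chromatin cannot be told apart.

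TBP-1 is part of the complex TFIID, which marks the core promoter of genes read by RNA polymerase II, and it also serves RNA polymerases I and III. In the adult worm germline, messenger RNAs are made in large amounts for the oocyte and the embryo, and many are stored without being translated. The 9 proteins act on messages of the germline and the early embryo. GLD-1 and MEX-3 bind RNA through KH domains, MEX-5, OMA-1 and OMA-2 through CCCH zinc fingers, SPN-4 through an RNA recognition motif, and NOS-2 is a Nanos protein. CGH-1, a DEAD-box RNA helicase, and CAR-1, a member of the Lsm family, are partners in the RNA granules of oocytes and embryos.

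A gene was counted as carrying a peak when the summit of a reproducible peak lay within 500 bp of the annotated 5′ end of any of its transcripts. The reproducible list holds the 3862 peaks that passed the authors' irreproducible discovery rate threshold. Each replicate list and the list of both replicates pooled hold 30000 peaks, weak ones included. Peaks are ranked within each list by the authors' deposited signal value, number 1 being the strongest. That value served for ranks within a list only, since its scale is not stated. The read depth behind the peaks is unknown.

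Of the 9 genes, mex-3, gld-1, mex-5, oma-2, spn-4 and cgh-1 carried a reproducible peak, which is 6 of 9 (66.7%) beside 10.2% of all protein-coding genes (2035 of 19973). All 6 summits lay upstream of the annotated end, from -216 bp at cgh-1 to -403 bp at oma-2. Most protein-coding genes with a peak also had it upstream, as given below. The remaining 3 genes, oma-1, nos-2 and car-1, had none in reach. No test was made of the count, because the genes were chosen with earlier results of these data known.

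**Figure D1:**
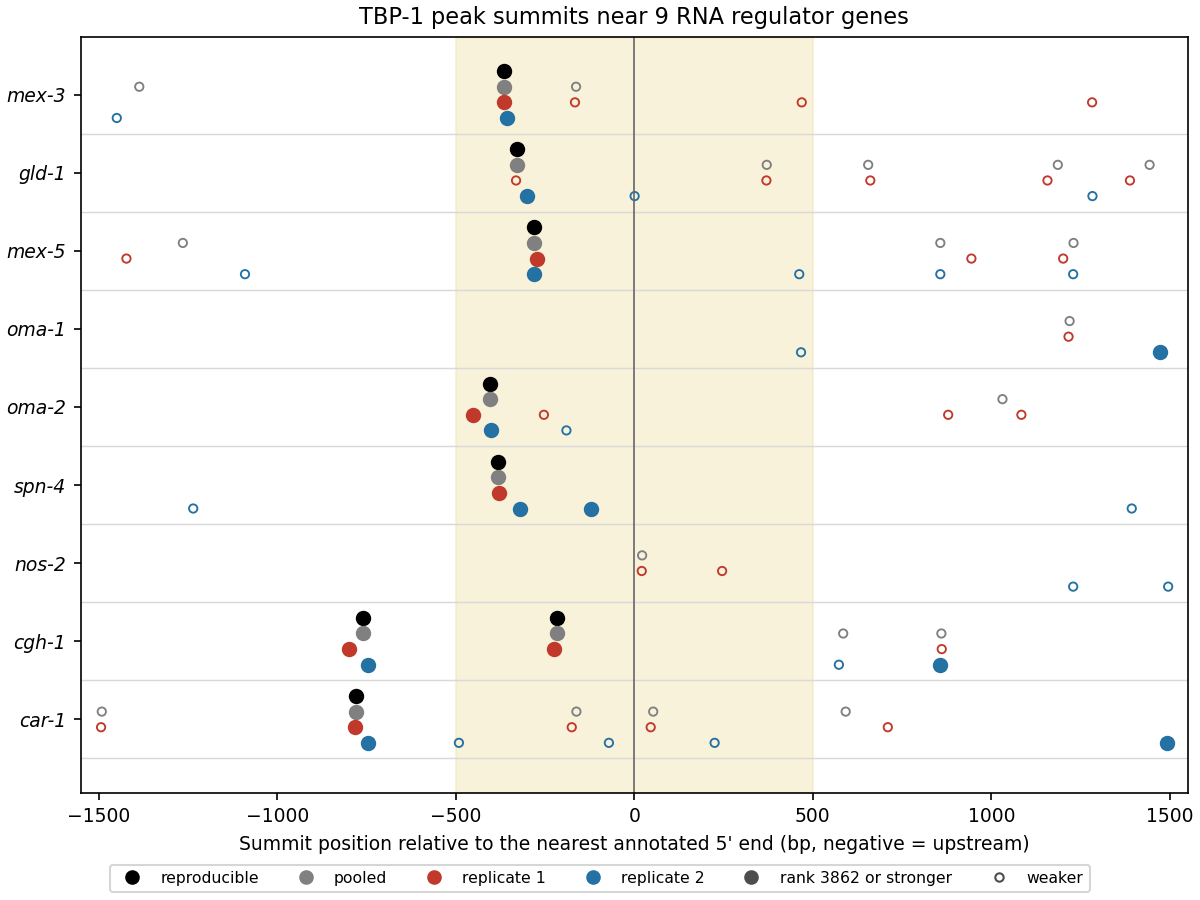
Positions of TBP-1 peak summits (horizontal axis, bp from the nearest annotated 5′ end of the gene, negative upstream) at the 9 genes, with 1 row of points for each of the 4 peak lists. Large filled points rank 3862 or stronger in their list, small open points are weaker, and the shaded band is the 500 bp window. At mex-3, mex-5, oma-2 and spn-4 both replicates have a strong summit upstream of the end inside the band. At cgh-1 and car-1 both have one farther upstream, outside it. The genes oma-1 and nos-2 have none upstream of their 5′ ends in the range drawn.

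The bases at the annotated 5′ ends of 6 of the genes are shown first, because the summit positions are counted from these ends. Each line runs from 24 bases before the end to 6 bases into the transcript, on the gene's strand, with an AG, or the full TTTCAG, directly before the end in capitals. The bases are those of the RefSeq copy of WBcel235.
mex-5 (chrIV:13353699-13353728, plus strand): tcgataatcaattgaatgTTTCAGacagag
oma-1 (chrIV:8888952-8888981, plus strand): ggatcatttgattttcttTTTCAGaactta
oma-2 (chrV:8029415-8029444, plus strand): ttttaaaatttctttaaaTTTCAGggaatc
spn-4 (chrV:6784898-6784927, minus strand): tctttattcaacttttttTTTCAGaatgca
nos-2 (chrII:7065594-7065623, plus strand): catgcgcgcccgctaaaaaacacacacaga
cgh-1 (chrIII:7497827-7497856, minus strand): tcaactttaatctcgattttacAGatctca

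TTTCAG is the usual end of a splice acceptor in C. elegans. A spliced leader RNA can be joined to a messenger RNA at such a site, and the stretch of RNA before it is then removed, so that an annotated 5′ end directly behind an acceptor can be a splice site and not the place where transcription began. Which of the 9 messages are joined to a leader was not analysed here. AG stood directly before at least 1 annotated end of 8 of the 9 genes, nos-2 being the exception, and the full TTTCAG before 5 of them. Counted at the outermost end of each gene model alone, 7 of 9 had AG, against 27.6% of all 19973 protein-coding genes, and 4 of 9 had TTTCAG, against 12.3%.

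Across the genome the median summit lay farther upstream where the end followed an AG. Among the 2035 protein-coding genes with a peak, the nearest end followed an AG in 867, where the median summit position was -224 bp (interquartile range -316.5 to -149 bp). In the other 1168 it was -124.5 bp (-253.25 to -24 bp). In the 441 genes with TTTCAG it was -239 bp. All 6 members with a peak had an AG at that end. The summit lay upstream in 91.7% of the 867 genes with an AG and in 80.7% of the other 1168. Lying upstream therefore sets the 6 members little apart. Over all 2035 genes the median was -176 bp, and 8.3% of them had a summit farther upstream than that of oma-2, 11.2% farther than spn-4, 12.9% farther than mex-3 and 18.2% farther than gld-1. The summits of mex-5 and cgh-1 lay within the bulk, with 26.1% and 40.8% of genes farther upstream. Set beside the 867 genes with an AG alone, oma-2, spn-4, mex-3 and gld-1 lay upstream of the lower quartile of -316.5 bp. Within the interquartile range of those genes lay mex-5 and cgh-1. These are descriptions across genes, which are not replicates.

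**Figure D2:**
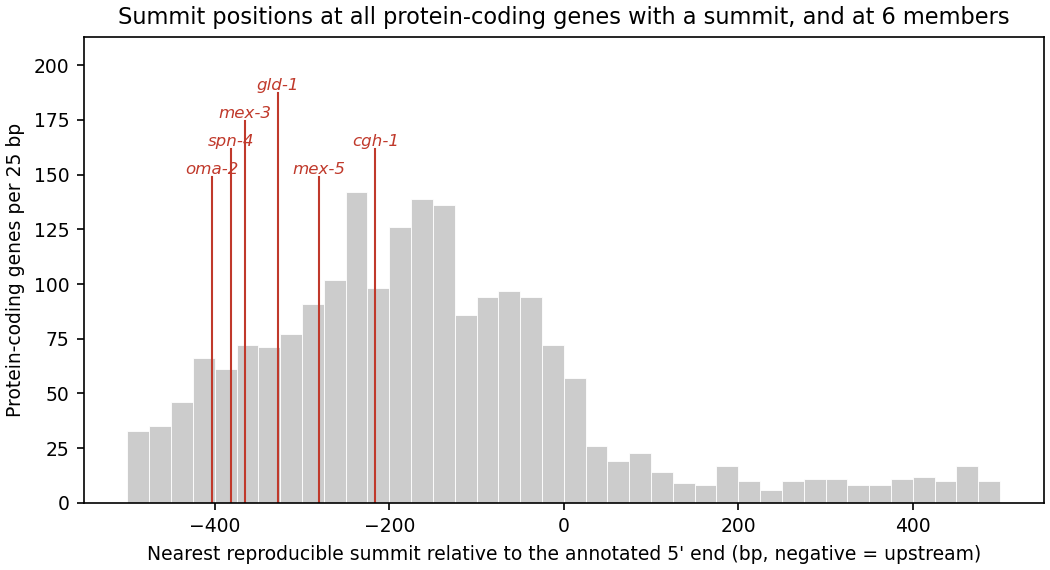
Number of protein-coding genes (vertical axis, per 25 bp) by the position of their nearest reproducible summit relative to the annotated 5′ end (horizontal axis, bp), for the 2035 genes with a summit within 500 bp. Red lines mark the 6 members, which all lie upstream, from -403 bp (oma-2) to -216 bp (cgh-1), farther upstream than the median of -176 bp.

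The bases under the summits of mex-5, oma-2, spn-4 and cgh-1 are given next, since the peaks of these 4 genes were placed there. Each line is the 201 bases centred on the reproducible summit, read on the strand of the named gene, with the summit base and 3 bases to each side in capitals.
mex-5 (chrIV:13353342-13353542, plus strand): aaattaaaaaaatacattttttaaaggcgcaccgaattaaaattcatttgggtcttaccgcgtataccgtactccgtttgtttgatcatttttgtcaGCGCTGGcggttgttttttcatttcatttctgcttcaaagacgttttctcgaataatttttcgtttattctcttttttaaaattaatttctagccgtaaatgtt
oma-2 (chrV:8028936-8029136, plus strand): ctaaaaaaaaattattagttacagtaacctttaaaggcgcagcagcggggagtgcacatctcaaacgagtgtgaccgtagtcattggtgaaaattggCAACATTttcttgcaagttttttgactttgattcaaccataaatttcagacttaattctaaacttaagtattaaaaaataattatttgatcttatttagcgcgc
spn-4 (chrV:6785184-6785384, minus strand): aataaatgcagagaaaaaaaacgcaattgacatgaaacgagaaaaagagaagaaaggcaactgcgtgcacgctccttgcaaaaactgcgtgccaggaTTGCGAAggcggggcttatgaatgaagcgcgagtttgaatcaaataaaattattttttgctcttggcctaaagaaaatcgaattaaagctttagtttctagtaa
cgh-1 (chrIII:7497948-7498148, minus strand): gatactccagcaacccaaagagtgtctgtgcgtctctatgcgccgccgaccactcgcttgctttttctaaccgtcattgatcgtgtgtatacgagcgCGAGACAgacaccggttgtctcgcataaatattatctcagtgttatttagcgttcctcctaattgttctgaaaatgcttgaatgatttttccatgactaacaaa

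TATAAA, the core of the TATA box that TBP proteins bind, was searched on both strands, and no match lay within 100 bp of the summit at any of the 6 genes. The share with a match was 17.8% of the 1649 reproducible peaks with a protein-coding end in reach, and also 17.8% of windows of the same length placed 1000 bp to either side. In the 500 bp before the outermost 5′ end, 5 of the 9 genes held a match, against 54% of all protein-coding genes. At mex-5, oma-1 and oma-2, the CCCH zinc finger genes, the single match began at -181, -162 and -120 bp, which at mex-5 and oma-2 is between the summit and the annotated end. The single match of cgh-1, at -458 bp, lay upstream of its summit. Of the 3 matches of gld-1, those at -456 and -454 bp lay upstream of its summit and that at -199 bp downstream. The windows differed in base composition. That of mex-5 held 31.3% G and C and that of oma-2 32.8%, lower than in all but 3.4% and 7.03% of the peaks with a protein-coding end in reach. The windows of cgh-1 and gld-1 held 44.3% and 46.8%.

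The KH domain genes each carried a peak, and both lie on chromosome I. GLD-1 represses the translation of many messages in the meiotic germline and is needed for oocytes to form. Its gene (WBGene00001595, 7695681 to 7698222, plus strand, 1 transcript) had a reproducible peak from 7695188 to 7695517 with the summit at -328 bp, in the 448 bp between T23G11.4, a gene on the same strand, and gld-1. The peak was among the weakest of the list, at rank 3774 of 3862. The nearest upstream summit stood at -331 bp and rank 4456 in replicate 1, and at -299 bp and rank 2980 in replicate 2. A weaker summit of replicate 2, rank 10025, stood at 1 bp. Replicate 1 thus ranked the upstream peak outside its own 3862 strongest peaks and replicate 2 inside.

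MEX-3 keeps posterior messages from being translated in the oocyte and in the anterior cells of the embryo. Its gene (WBGene00003229, 127285 to 134270, plus strand) has 5 annotated transcripts with 5 different 5′ ends, and the position of the peak depends on which one is taken. The reproducible peak, from 128167 to 128496 at rank 2097, had its summit at -365 bp from the end of transcript F53G12.5a.1, which begins 1 bp before the start codon and directly behind TTTCAG. The same summit lay at 1046 to 1047 bp downstream of the ends of F53G12.5a.2 and F53G12.5b.1, and 948 bp downstream of F53G12.5a.3, inside an intron of these longer transcripts. None of those 3 ends follows an AG. From the end of F53G12.5c.1 it lay at -3930 bp. No summit of any of the 4 lists lay within 500 bp of the outer 3 ends. The replicates placed the strong summit 10 bp apart, at -366 bp and rank 1970 in replicate 1 and at -356 bp and rank 2338 in replicate 2. A weaker summit at -166 bp, of rank 5935, stood in replicate 1 and at -163 bp, of rank 13786, in the pooled list. Replicate 2 had no separate summit there, but its 480 bp wide peak, from 128101 to 128580, covered both positions.

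Of the CCCH zinc finger genes, mex-5 had the strongest peak of the 6 and oma-1 had none. MEX-5 accumulates in the anterior of the one-cell embryo and helps to set apart the germ plasm. Its gene (WBGene00003230, chromosome IV, 13353723 to 13356104, plus strand) had a peak from 13353277 to 13353606 at rank 1768, with the summit at -281 bp. The replicates placed it at -272 bp with rank 2089 and at -280 bp with rank 2036, 8 bp apart. The same summit lay at -249 bp from the 5′ end of rec-8, the gene of a meiotic cohesin subunit, which is read in the other direction and starts 529 bp away. The peak cannot be given to 1 of these 2 genes, and it counted for rec-8 when each summit was assigned to its nearest end.

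OMA-1 and OMA-2 are close relatives that act redundantly in the last steps of oocyte maturation, and their genes differed in these lists. At oma-2 (WBGene00003865, chromosome V, 8029439 to 8031214, plus strand) a peak from 8028871 to 8029200 ranked 2766, with the summit at -403 bp. The strong summit was at -452 bp and rank 3214 in replicate 1 and at -400 bp and rank 2388 in replicate 2. A second, weaker summit lay closer to the end in each replicate, at -253 bp with rank 11073 and at -190 bp with rank 11102. Both replicates therefore had 2 overlapping peaks over this promoter. At oma-1 (WBGene00003864, chromosome IV, 8888976 to 8890999, plus strand) no summit of any list lay upstream within 1500 bp. The nearest reproducible summit was 4974 bp downstream, at -127 bp from the gene rad-54.L2. In the weak part of replicate 2, a summit of rank 25965 stood at 467 bp inside the gene. A stronger one of rank 3399 stood at 1471 bp, in an exon, also in replicate 2. Replicate 1 had no summit nearer than 1216 bp, of rank 28729. The upstream neighbour of oma-1, C09G9.5, is read in the same direction and ends 408 bp before it. That of oma-2, F43H9.4, is also on the same strand and ends 649 bp before it. The difference between the 2 genes was not tested, and a missing entry in a list does not show that TBP-1 was absent.

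SPN-4 controls maternal messages and spindle orientation in the early embryo. Its gene (WBGene00004984, chromosome V, 6783187 to 6784903, minus strand) had a peak from 6785119 to 6785448 at rank 2232, with the summit at -381 bp. It lies in the 547 bp between spn-4 and spe-39, a vesicle transport gene read in the other direction, and the summit was at -167 bp from the nearest end of spe-39. Replicate 1 had 1 summit here, at -378 bp with rank 2126. Replicate 2 had 2, at -122 bp with rank 2130 and at -321 bp with rank 3463, both among its 3862 strongest. The strongest summits of the replicates were 256 bp apart, against a median of 18 bp (interquartile range 6 to 37.25 bp) for the 1636 peaks with a protein-coding end in reach and a peak in both replicates. The summit at -122 bp, the nearest to spn-4, had no counterpart in replicate 1.

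NOS-2 is made from maternal messages in the precursors of the germ cells. Its gene (WBGene00003784, chromosome II, 7065618 to 7067051, plus strand) had its nearest reproducible summit at -5182 bp. A weak summit sat on the 5′ end itself, at 22 bp in the pooled list with rank 14097 and at 21 bp in replicate 1 with rank 14588. Replicate 2 had no summit nearer than 1229 bp. The gene was also the 1 member without an AG before its 5′ end. All pooled peaks together reach 35.8% of protein-coding genes, so a pooled summit of this rank sets the gene little apart.

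CGH-1 protects stored messages from decay in the oocyte. Its gene (WBGene00000479, chromosome III, 7495320 to 7497832, minus strand) had 2 reproducible peaks upstream and 1 inside it. The nearer one, from 7497883 to 7498212 with its summit at -216 bp, ranked 3274. It was seen in replicate 1, at -226 bp with rank 3207, and overlapped no peak at all among the 30000 of replicate 2. Of the 3862 reproducible peaks, 27 had no overlapping peak in replicate 2, this one included. The farther one, from 7498524 to 7498695 with its summit at -759 bp, was stronger, at rank 1648, and was present in both replicates, at -799 bp with rank 1556 and at -745 bp with rank 2569. It was 172 bp wide, where the most frequent width was 330 bp, and its summit lay 157 bp from C07H6.9, the next gene upstream, which is read in the same direction and ends there. The peak that counted for cgh-1 therefore rested on replicate 1, and the peak both replicates shared was outside the window. Inside the gene a further reproducible peak, 82 bp wide, stood at rank 2733, above the peak that counted for cgh-1. Its summit lay at 1991 bp from the 5′ end, in the 3′ untranslated region, and it ranked 3302 in replicate 1 and 2276 in replicate 2. Another summit at 860 bp, of rank 4367 in the pooled list, was below the 3862 of the reproducible list. It ranked 5490 in replicate 1 and 3145 in replicate 2 and lay at -318 bp from the 5′ end of C07H6.10, an snoRNA gene nested in cgh-1.

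CAR-1 is bound to CGH-1 in the same granules. Its gene (WBGene00012484, chromosome I, 12904470 to 12906040, plus strand) had no reproducible summit within 500 bp, but 1 at -780 bp, from 12903525 to 12903854 at rank 2262. Both replicates held it, at -781 bp with rank 2801 and at -746 bp with rank 1959. It lies in the 1020 bp between car-1 and coa-5, whose name marks a cytochrome oxidase assembly factor, and was at -241 bp from the 5′ end of coa-5, which is read in the other direction. Closer to car-1, a summit at -162 bp ranked 6124 in the pooled list, with a counterpart at -175 bp and rank 5143 in replicate 1. Replicate 2 had summits at -71 bp with rank 11877 and at -491 bp with rank 6791. Both replicates thus listed weaker peaks within 500 bp before car-1, none among their 3862 strongest.

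**Figure D3:**
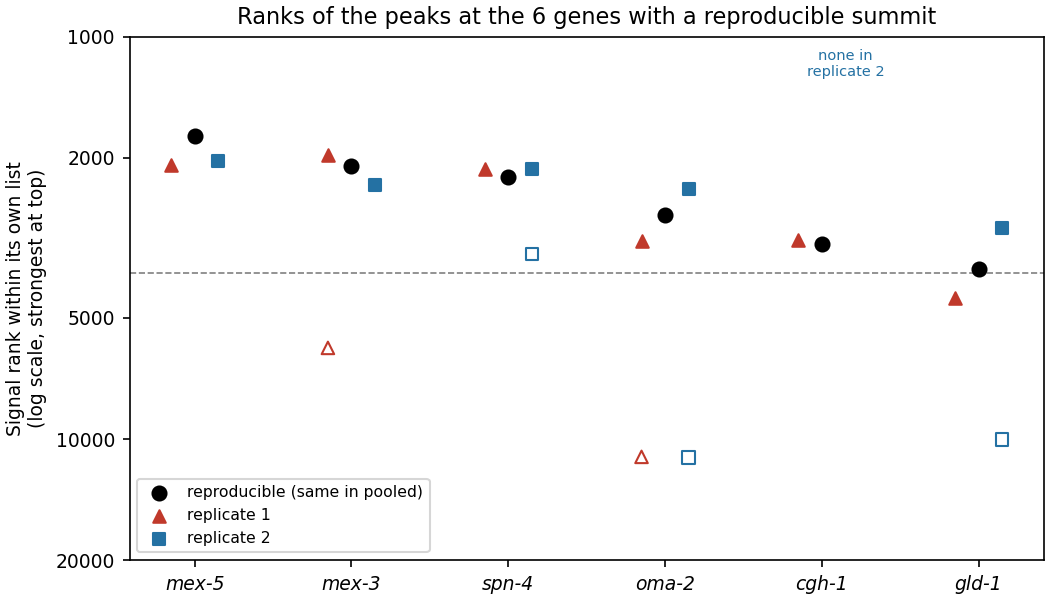
Signal rank (vertical axis, log scale, strongest at the top) of the peak counted for each of the 6 genes, in the reproducible list (black), and of the peaks overlapping it in replicate 1 (triangles) and replicate 2 (squares), the strongest filled and any further one open. The dashed line marks rank 3862. At gld-1 replicate 1 falls below the line, and at cgh-1 replicate 2 has no overlapping peak.

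In strength the 6 peaks lay in the middle and the lower part of what protein-coding genes carry. Of the 2035 genes with a peak, 38.4% had a stronger one than mex-5, 49.2% than mex-3, 54% than spn-4, 69.5% than oma-2, 84.5% than cgh-1 and 97.4% than gld-1. The median rank over these genes was 2117. None of the 6 summits had the 5′ end of a tRNA, snoRNA or snRNA gene within 500 bp. The share of other peaks with such a gene in reach is not given here.

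Several of the genes also had a reproducible summit at their 3′ end, a pattern looked at after it had been seen in the data. Within 500 bp of the 3′ end, and over 500 bp from any of their own 5′ ends, 5 of the 9 genes had a summit, against 5.46% of all protein-coding genes. The other germline groups also had more than that share, with 3 of 10 PUF genes (30%), 6 of 42 other RNA regulators (14.3%) and 2 of 15 P granule genes (13.3%). At oma-2 and cgh-1 it lay 118 and 162 bp past the 3′ end, 79 bp from the 5′ end of vars-1, a valyl-tRNA synthetase gene, and 73 bp from that of the ncRNA gene C07H6.15. The oma-2 summit ranked 3614, with rank 6991 at 12 bp past the end in replicate 1 and rank 2091 at 117 bp in replicate 2. That of cgh-1 ranked 2162, with ranks 2105 and 1842 in the replicates. At gld-1, spn-4 and car-1 the summit lay inside the gene, in the annotated 3′ untranslated region. A 3′ end summit inside the gene model was thus found in 3 of 9, against 0.956% of all protein-coding genes (191 of 19973). It was found in 2 of the 15 P granule genes, 1 of the 10 PUF genes and 1 of the 42 other RNA regulators. No difference between these groups was tested. The reproducible peak inside cgh-1 fell outside this count because its summit lay 521 bp before the 3′ end. With it, 4 of the 9 genes had a reproducible summit in their 3′ untranslated region. The share of all protein-coding genes with a summit in that region is not given here, and the 0.956% belongs to the narrower count.

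The strongest of these was in car-1, from 12905905 to 12906140 on chromosome I, at rank 1411 and 35 bp before the 3′ end. It ranked 1614 in replicate 1 and 1264 in replicate 2, so it stood above the reproducible peaks within 500 bp of the 5′ ends of all 9 genes. The nearest 5′ end of another gene was 1749 bp away, with piRNA genes left out of the search here and at spn-4. In spn-4 the summit lay 153 bp before the 3′ end, at rank 2596, with ranks 2636 and 2379 in the replicates, and the nearest other 5′ end was 2111 bp away. In gld-1 it lay 336 bp before the 3′ end at rank 3830, with ranks 5964 and 3409, and T23G11.10 starts 415 bp from it. The control alignment against which the peaks were called was not analysed here.

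The wider set of germline RNA regulators was listed by role, and 42 of its 43 symbols were found in the annotation, ntl-1 being the one not found. Of the 42 genes, 12 (28.6%) carried a reproducible peak, beside 10.2% of all protein-coding genes. The summit lay upstream of the 5′ end in 11 of the 12, as it did in most protein-coding genes with a peak. The strongest were at mog-4 (rank 881, -217 bp), a DEAH-box helicase gene, sqd-1 (rank 918, -314 bp), an hnRNP gene, atx-2 (rank 1026, -49 bp), the ataxin-2 gene, mex-1 (rank 1183, -193 bp) and pos-1 (rank 1394, -281 bp). These 5 ranked above all 6 members with a peak. The pos-1 summit was also in reach of vha-18, a proton pump gene.

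By role, 3 of the 4 further CCCH zinc finger genes had a peak. They were mex-1, pos-1 and pie-1, whose products act in the early blastomeres. The pie-1 summit, rank 2241, was 388 bp downstream of the end, and mex-6, a close relative of mex-5, had its nearest reproducible summit at -22001 bp. Of the 2 further Nanos genes, nos-3 had one at -41 bp with rank 2029 and nos-1 had its nearest at 2859 bp. A peak was found at 1 of 5 genes for cytoplasmic poly(A) polymerases and their partners, 0 of 4 CPEB genes, 4 of 10 translational repressors and partners, 0 of 4 eIF4E genes, 2 of 9 decapping and deadenylation genes and 1 of 4 Y-box protein genes. Among other germline groups, 4 of 10 PUF genes and 3 of 15 P granule genes carried one. The share of all protein-coding genes beside each of these small counts is 10.2%. No difference between these groups was tested.

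The number of members with a peak moved with the window and the peak list, and so did the share of all genes. With a 250 bp window cgh-1 alone was left (1 of 9, beside 6.38% of all protein-coding genes), while car-1 joined at 1000 bp (7 of 9, beside 13.5%). With the strongest 1931 reproducible peaks, mex-5 alone was left (1 of 9, beside 4.56%). Replicate 1's own 3862 strongest peaks gave 5 of 9, without gld-1, beside 10.1%. Those of replicate 2 gave 5 of 9, without cgh-1, beside 9.6%. With the outermost 5′ end of each gene model 5 of 9 had a peak, without mex-3, beside 9.5%. With each summit given to its nearest end, 4 of 9 did, without mex-5 and spn-4, beside 6.89%. When any part of the peak within 500 bp counted, 6 of 9 did, beside 11.4%. All 30000 pooled peaks reached 8 of 9, without oma-1, beside 35.8%.

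**Figure D4:**
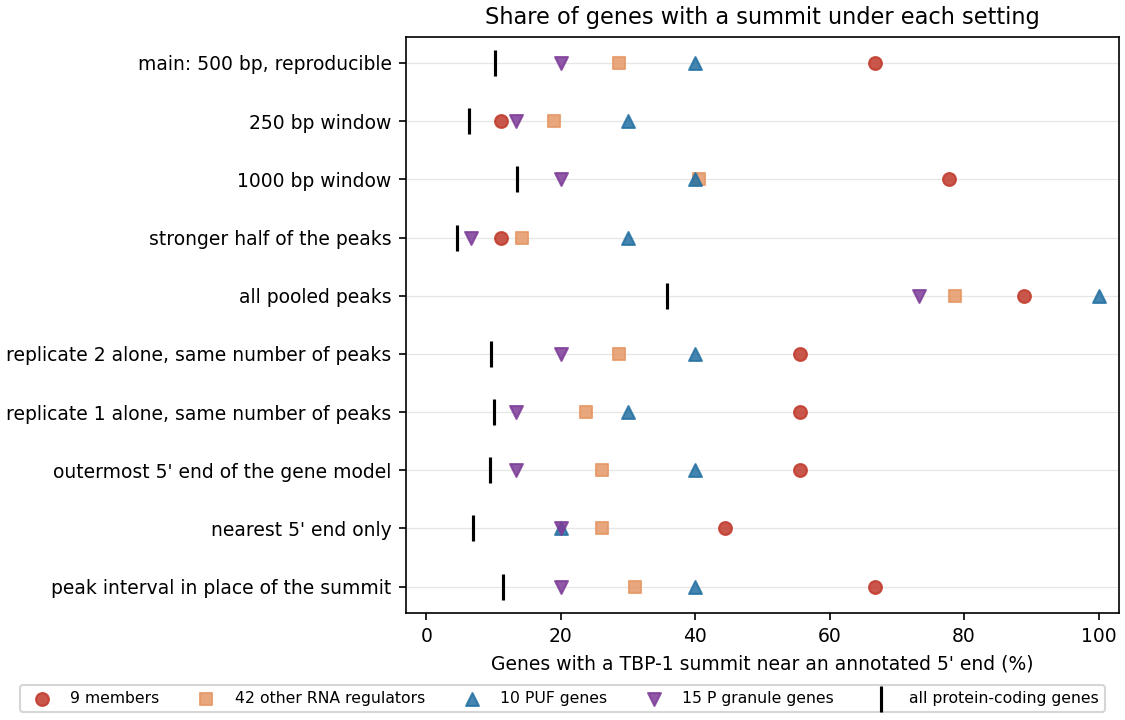
Share of genes with a TBP-1 summit near an annotated 5′ end (horizontal axis, percent) under 10 settings (rows) for the 9 members, 42 other germline RNA regulators, 10 PUF genes and 15 P granule genes, with all protein-coding genes as a black bar. The share of the members is 66.7% in the main setting and 11.1% with a 250 bp window or the strongest 1931 peaks.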

How the data were processed

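Per the text files deposited with the peaks, the authors called peaks on ce11 in narrowPeak format against a control alignment, for each replicate and for both replicates pooled, and then applied the irreproducible discovery rate (IDR) threshold. Peak caller and aligner: not given in the sources used here. Deposited signal values, per peak, were used for ranks within a list only. The deposited −log10 q value was 3.96 for all reproducible peaks and was not used. All 3862 reproducible peaks were also in the pooled list. The most frequent width was 330 bp in the reproducible list, 336 bp in replicate 1 and 480 bp in replicate 2, and nearly all 330 bp peaks (2028 of 2031) have the summit in the middle, which limits its precision.

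Summits were assigned to 5′ ends of Ensembl release 115 transcripts in Python 3.11.15 with numpy 2.4.6 and pandas 2.3.3. The assignment was tested on planted summits. Bases came from the RefSeq copy of WBcel235, and 0 peaks ran past a chromosome end. RefSeq gave the same single 5′ end for the 8 members with 1 end and 3 of the 5 ends of mex-3. Samples form 1 group of 2 replicates, so counts are descriptions with no test, and read depth is unknown. Alternatives were other windows, peak lists, replicates and choices of 5′ end. The genes named are the 9 members, the 5 of the wider list with the strongest peaks, its CCCH and Nanos genes, and genes sharing a summit. Members and lists were chosen with earlier results of these data known. Genes at a 3′ end summit, the 3′ end count itself, and neighbouring genes, were named after their values were seen.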

Additional observations from a re-analysis of the deposited data

How the results depend on the processing

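Of the 9 alternatives, 7 kept the number of members with a peak within 1.5 times the main count of 6. The exceptions were the 250 bp window and the strongest 1931 peaks, with 1 each. For the 1000 bp window, all pooled peaks and any part of the peak, this outcome was fixed in advance. These settings contain every gene of the main setting, and all 9 genes are no more than 1.5 times its count. Leaving out replicate 1 or replicate 2 gave 5 each time. For the 42 other RNA regulators the count of 12 moved to 6 with the strongest 1931 peaks and to 33 with all pooled peaks, and it was 12 and 10 without replicate 1 and replicate 2. Those peaks reach 35.8% of protein-coding genes. Of all 9 genes, oma-1 had a summit in none of the alternatives, and no member had one in all 9.

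Among the 6 genes with a peak, the nearest summit changed sides of the 5′ end in 3. At mex-3 it stood at 1047 bp from the outermost end of the gene model. At gld-1 it stood at 1 bp in the list of replicate 2, a weak summit, and at -331 bp in that of replicate 1. At cgh-1 it stood at 573 bp in replicate 2 and at -226 bp in replicate 1. Among the 3 genes without one, it also did so at nos-2, from -5182 bp to 22 bp in the pooled list, 1229 bp in replicate 2 and 21 bp in replicate 1, and at car-1, from -780 bp to 53 bp in the pooled list and 46 bp in replicate 1. With all pooled peaks, 5 of the 9 positions stayed the same. This is a weak check, since every reproducible peak is also in the pooled list and only a nearer summit can change a position. Without replicate 1, 2 of the 9 positions moved by no more than the spread between replicates. Without replicate 2, 3 of the 9 did. The spread was 1 standard deviation of the 2 replicate positions, and the position judged is 1 of these 2. At mex-5 a shift from -281 to -272 bp without replicate 2 counted as moved. At mex-3 a shift from -365 to -356 bp without replicate 1 did not. The counts therefore do not measure how stable the positions are. A TATAAA match within 50 bp of a member's summit was not possible, since none lay within 100 bp, so that setting adds no check. No paired analysis was possible because there is 1 group. Depth is unknown, so a missing peak cannot be told from one too weak to list.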
